A study of Caenorhabditis elegans with 2 samples.

Results

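The phat genes of Caenorhabditis elegans, named for pharyngeal gland toxin-related proteins, were identified by gene symbol. The family was chosen with earlier results of these data known. A gene was taken where a probe set (the group of oligonucleotides that reports 1 transcript) was annotated to a single gene named phat-1 to phat-8. All 8 genes were found, each with 1 such probe set, among 17118 genes with a single-gene probe set on the array. One group was worms of the wild-type strain N2 raised with a-SWCNT, which the labels describe as amide single-walled carbon nanotubes, from the first larval stage (L1) onwards, at a dose of 500 μg/mL. These were set against N2 worms raised without nanotubes. The culture lasted 48 hr and was kept at 22 °C in both cases. Both groups were synchronised with hypochlorite, came from a strain kept on agar seeded with Escherichia coli OP50, and are labelled as L4 stage, which is the final larval stage. RNA of whole worms was hybridised to 1 array per group.

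The pharynx is the muscular feeding organ of the worm, and its gland cells send secretory vesicles through ducts into the pharyngeal lumen. Gland secretion is known to accompany feeding and the moults. The phat genes are known as products of these glands, and members of the family are targets of HLH-6, a basic helix-loop-helix transcription factor that the glands need to develop and function. RNA of a few gland cells is diluted in whole-worm RNA, so a lower signal from fewer or smaller glands cannot be told apart from less phat RNA per gland cell.

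With 1 array per group there are no replicates, so no p-value can be given and the spread between cultures is unknown. Each log2 ratio is a-SWCNT over control. The deposited signals were not at a common level, with a trimmed mean (2% removed at each end) of 83.3 on the a-SWCNT array and 208.6 on the control array. The a-SWCNT signals were therefore multiplied by 2.505 before any comparison. Signals below a floor of 56.7, the pooled median, were counted as not measured, and a gene was called at a difference of 2-fold or more. Disagreement between probe sets of the same gene was used as a rough gauge of error. Such a gap joins the errors of 2 ratios, so it is not the error of a single ratio. Over 1626 genes that had 2 measured probe sets, the gap between their log2 ratios had a median of 0.42 and a 95th percentile of 1.37.

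With the scaling used, no phat gene differed by 2-fold between the arrays. All 8 were above the floor on both arrays, and 5 had a log2 ratio below 0 and 3 above it, while 52.1% of the 9382 measured genes were below 0, so the split by sign was not far from that of all genes. The lower ones were phat-1, phat-7, phat-3, phat-2 and phat-4, and the higher ones phat-5, phat-6 and phat-8. At 2-fold, 0 of 8 were called lower and 0 of 8 higher, against 2.86% and 1.42% of all measured genes. At 1.5-fold, phat-1 and phat-7 were lower and phat-5 was higher, against 11.6% of all measured genes lower and 8.04% higher. The median of the 8 log2 ratios was -0.41, and that of all measured genes was -0.02.

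**Figure D1:**
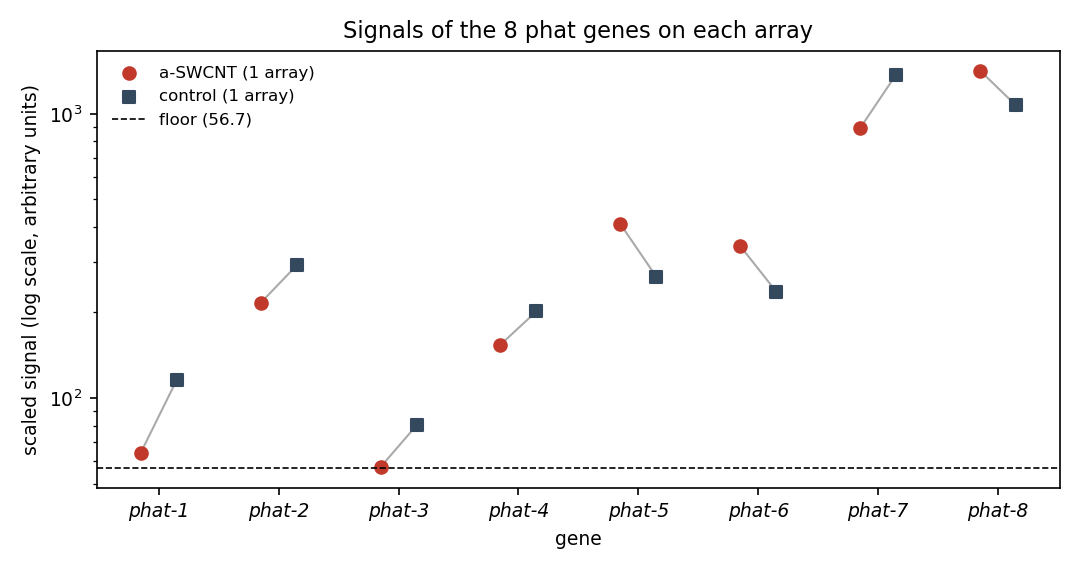
Scaled signal (logarithmic axis, arbitrary units) of each phat gene on the a-SWCNT array (circles) and the control array (squares), with a dashed line at the floor of 56.7. Lines slope up towards control for phat-1, phat-2, phat-3, phat-4 and phat-7 and down for phat-5, phat-6 and phat-8; heights of different genes are not comparable, because each probe set has its own affinity.

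Among the 5 lower genes, phat-1 (C46H11.8, probe set 184255_at) had a scaled signal of 64.2 on the a-SWCNT array and 115.8 on the control array. This was 1.80-fold lower, a log2 ratio of -0.85, and 4.88% of the measured genes had a lower ratio. The a-SWCNT value of phat-1 lay only 1.13 times above the floor, so that signal was close to the level where probe sets were counted as not measured. The gene beside it, phat-2 (C46H11.9, 184268_s_at), had 216.3 on the a-SWCNT array and 292.8 on the control array, 1.35-fold lower (log2 ratio -0.44). Both lie on chromosome I of the RefSeq assembly WBcel235, separated by 1 annotated gene, a non-coding RNA. Their log2 ratios differed by less than the median difference of 0.42 between probe sets of 1 gene.

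The pair phat-7 and phat-3 lies on chromosome V with no annotated gene between them, and both were lower on the a-SWCNT array. The bright probe set of phat-7 (C49G7.3, 180177_at) had 891 on the a-SWCNT array and 1375 on the control array, 1.54-fold lower (log2 ratio -0.63), and 10.3% of the measured genes had a lower ratio. At 15.7 and 24.2 times the floor, it was the lower member with the most signal above the floor on both arrays. The probe set of phat-3 (C49G7.4, 182712_at) was dim, with 57.2 on the a-SWCNT array and 80.1 on the control array, 1.40-fold lower (log2 ratio -0.49). Its a-SWCNT value was 1.01 times the floor, which makes it the least certain of the 8 ratios in terms of signal.

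A further probe set, 182713_s_at, is annotated to both phat-7 and phat-3 and was not counted among the members because it does not belong to 1 gene. It had 1180 on the a-SWCNT array and 1493 on the control array, a log2 ratio of -0.34. It was thus lower on the a-SWCNT array, as were the probe sets of each gene alone. The log2 ratio of phat-7 was 0.29 below that of the shared probe set, less than the median difference between probe sets of 1 gene. Which of the 2 transcripts bound to it cannot be told apart.

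The remaining lower gene, phat-4 (T05B4.3, 182573_at), had 154.1 on the a-SWCNT array and 201.8 on the control array, 1.31-fold lower (log2 ratio -0.39). This was the smallest difference among the 5, and it was below the median difference between probe sets of 1 gene.

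Among the 3 higher genes, phat-5 (T05B4.11, 186138_s_at) had 409.7 on the a-SWCNT array and 267.1 on the control array, 1.53-fold higher (log2 ratio 0.62), and 7.07% of the measured genes had a higher ratio. The X-linked phat-6 (T10B10.6, 182551_s_at) had 342.8 on the a-SWCNT array and 236.9 on the control array, 1.45-fold higher (log2 ratio 0.53). The chromosome II gene phat-8 (F15A4.6, 192485_at) had 1420 on the a-SWCNT array and 1071 on the control array, 1.33-fold higher (log2 ratio 0.41), and 15.6% of the measured genes had a higher ratio. Both signals of phat-8 were at least 18.9 times the floor, so its ratio did not depend on values near the floor. That ratio was the smallest of the 3 and just under the median difference between probe sets, again only a loose yardstick. The probe sets of phat-5 and phat-6, and among the lower genes that of phat-2, carry the suffix s, which marks oligonucleotides that may bind several similar transcripts. For these 3 genes the transcript behind the signal is less certain than for the other 5.

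With the scaling used, the lower genes ran from -0.85 to -0.39 and the higher ones from 0.41 to 0.62. This left a gap of 0.80 in log2 that held 63.6% of all measured genes. The phat genes were sorted by the sign of their own ratios, so the gap had to span 0. The central 50% of all measured genes, -0.33 to 0.26, lies within it. That share is thus no evidence of 2 separate classes of phat genes. The width of the gap is independent of a single scaling factor as long as the signals lie above the floor. It narrowed to 0.59 with quantile normalisation and to 0.60 with loess normalisation. In the values as deposited it was 0.29, where the phat-3 ratio of -1.21 was a bound set by the floor. The place of the gap against 0 does depend on the scaling factor. With equal hybridisation controls phat-8 stood at 0.24, where the median of all measured genes was -0.18. With equal 75th percentiles phat-4 stood at -0.26, where that median was 0.09. Of the 28 pairs of phat genes, 16 differed in log2 ratio by more than the median difference of 0.42 between probe sets of 1 gene. By definition as many same-gene pairs exceed that median as fall under it, so 16 of 28 is not far from that share. Of the 16, 15 paired a lower gene with a higher one, and such pairs differ by at least the gap of 0.80. Only 2 pairs exceeded the 95th percentile of 1.37, phat-5 against phat-1 (1.47) and phat-6 against phat-1 (1.38), and both rest on the near-floor a-SWCNT signal of phat-1. Most contrasts within the family were thus within the range that 2 probe sets of the same gene can show.

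**Figure D2:**
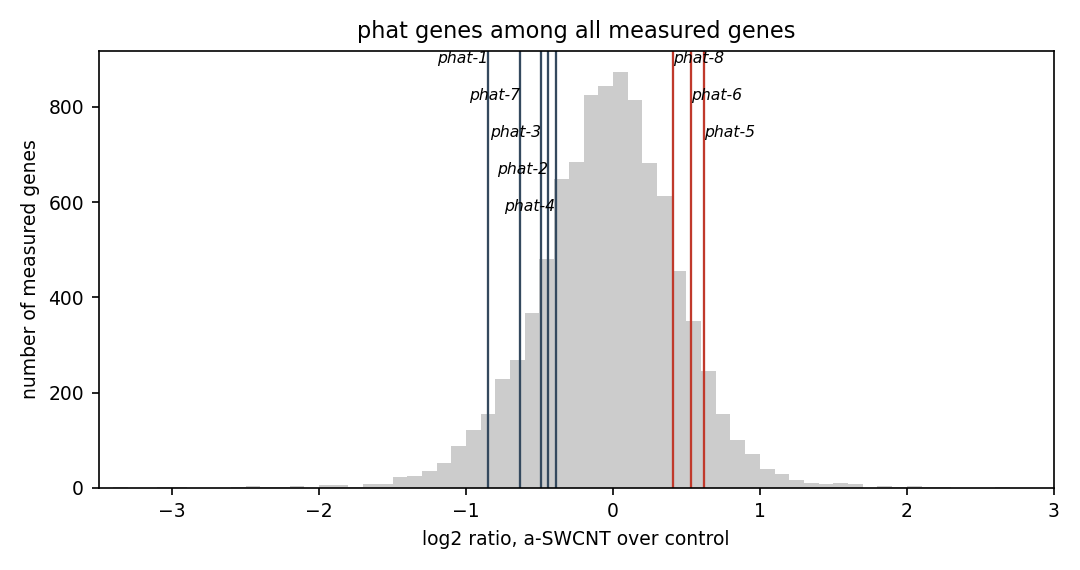
Histogram of log2 ratios (a-SWCNT over control) for the 9382 measured genes (grey, bins of equal width), with a vertical line at each phat gene. The 5 lower phat genes stand between -0.85 and -0.39 and the 3 higher ones between 0.41 and 0.62, with the scaling used.

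The spread of ratios at similar brightness was compared as well. For each phat gene, the quartiles of the log2 ratio were taken over the 500 probe sets nearest to it in mean signal. The ratio of phat-7, at -0.63, lay below quartiles of -0.30 and 0.40, and that of phat-5, at 0.62, above quartiles of -0.37 and 0.28. Outside their quartiles were 5 of the 8 genes, near the 50% that lie outside by construction, while phat-2, phat-4 and phat-8 lay within or on the edge of theirs. For phat-8 the upper quartile was 0.43, against its ratio of 0.41.

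Gene order did not divide the family in the same way as the ratios. Chromosome V carries 4 of the 8 phat genes, in the order phat-3, phat-7, phat-5 and phat-4. Of these, phat-5 alone was higher on the a-SWCNT array, and its log2 ratio stood 1.01 above that of phat-4, from which it is separated by 6 annotated genes, 2 of them protein-coding. Between phat-7 and phat-5 lie 14 protein-coding genes, of which 3 were measured, T05B4.8 at -0.12, T05B4.9 at 0.90 and T05B4.10 at -0.10. Directly next to a phat gene and measured were C46H11.7 beside phat-1 (log2 ratio -0.07), irg-2 beside phat-3 (-0.38), nhr-57 beside phat-4 (-0.21), T05B4.10 beside phat-5, T10B10.4 beside phat-6 (0.02) and F15A4.5 beside phat-8 (0.51). The neighbours of phat-1, phat-5 and phat-6 thus stood near 0 while the phat genes beside them did not. Those of phat-3, phat-4 and phat-8 had the same sign as the phat gene beside them. The control signal of F15A4.5, at 60.3, was close to the floor. The array's annotation names no genome build, so the reference assembly served here for chromosome and gene order only.

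**Figure D3:**
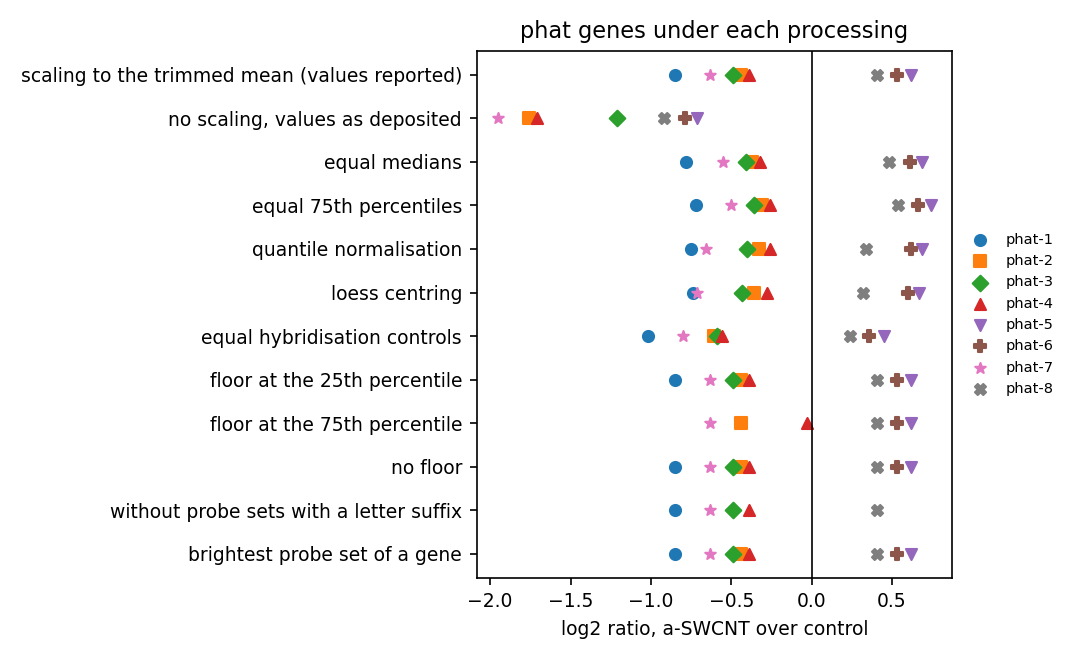
Log2 ratio of a-SWCNT over control (horizontal axis) of each phat gene under each way of processing (rows), 1 symbol per gene; a gene without a symbol was not measured in that row. In every row phat-5, phat-6 and phat-8, where shown, stand to the right of the other phat genes, while the position of 0 depends on the scaling, with all 8 genes below 0 in the values as deposited.

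The order of the genes was steadier than their position against 0. The genes phat-5, phat-6 and phat-8 had the 3 highest ratios, and phat-1 the lowest, under scaling to the trimmed mean, to equal medians, to equal 75th percentiles and to equal hybridisation controls, and under quantile and loess normalisation. The scalings multiply 1 array by a single factor, which cannot reorder ratios of signals above the floor. For such signals only quantile and loess normalisation could have changed the order. With equal hybridisation controls (RNAs added in known amount), phat-1 passed 2-fold at -1.02, while the median of all measured genes was -0.18. In the values as deposited, in which the whole a-SWCNT array is dimmer, phat-5 had a log2 ratio of -0.71 and phat-7 of -1.95. The 5 genes at or past 2-fold lower were those lower after scaling. The deposited a-SWCNT signals of phat-1 and phat-3 were under the floor, so their ratios of -1.74 and -1.21 are upper bounds. Which gene was lowest in the values as deposited is therefore not given by these ratios. The median of all measured genes was then -1.16, itself past 2-fold lower.

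Genes known to act in the glands or upstream of them gave no common direction. The probe set of hlh-6, the gland factor itself, was below the floor on both arrays, with 26.5 on the a-SWCNT array and 36.1 on the control array, so no ratio is given and a change in it was not detectable. The same held for the astacin metalloprotease gene nas-12 (13.9 on the a-SWCNT array and 44.5 on the control array). For pha-4, the FoxA factor that sets pharyngeal identity, the probe sets gave log2 ratios of -0.09 and -0.89. Their a-SWCNT signals, 70.4 and 58.9, were close to the floor. For lag-1, which encodes the CSL factor of Notch signalling and is known to repress hlh-6, they gave 0.28 and 0.45. The DNA-binding factor gene peb-1, active in the pharynx, had -0.32 in its measured probe set, and the kelch-repeat gene kel-1 had 0.36 as a bound, with only the a-SWCNT array above the floor. None of these 4 measured genes reached 2-fold in its mean, and 2 of them lay on each side of 0.

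Genes of other parts of the pharynx were set beside the phat genes. Of 22 genes listed for the pharyngeal cuticle, the glutamine- and asparagine-rich abu and pqn genes, 13 were measured. Below 0 were 13 of 13, against 52.1% of all measured genes. At least 2-fold lower were 3 of the 13, against 2.86% of all measured genes. The median of the 13 cuticle genes was -0.74. They ran from pqn-54 (-1.29) and abu-10 (-1.13) to abu-12 (-0.19). Of 10 pharyngeal muscle genes, 6 were measured and 4 were above 0, against 4492 of the 9382 measured genes, with a median of 0.40. The pharyngeal myosin genes myo-1 and myo-2 were both below 0. For myo-1 the probe sets gave -0.61 and -0.13, with a mean of -0.37. The value of myo-2, -1.30, came from 1 probe set with 98.0 on the a-SWCNT array and 240.9 on the control array. The troponin C gene tnc-2 was at 0.48 and the myosin gene myo-5 at 0.79. The part that these other pharyngeal tissues have in the phat values was not tested.

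**Figure D4:**
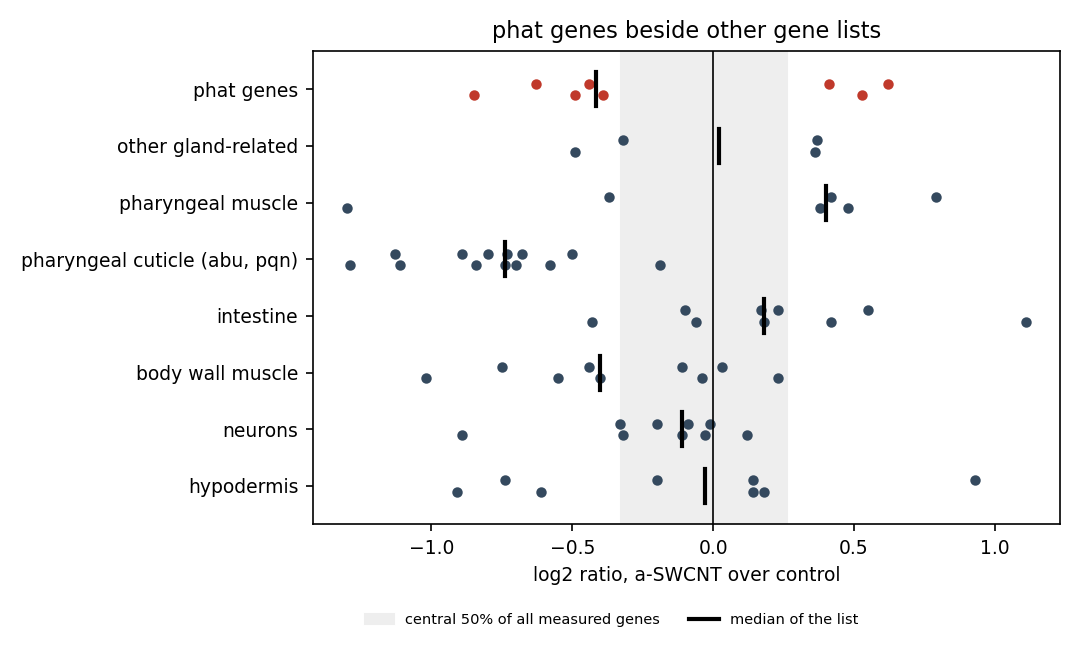
Log2 ratio of a-SWCNT over control for each measured gene (points) of the phat family and 7 other gene lists, with the list median as a vertical bar and the central 50% of all measured genes (-0.33 to 0.26) shaded. The 8 phat genes lie outside the shaded band, on both sides of it, and so do the 6 measured pharyngeal muscle genes. The 13 pharyngeal cuticle genes all lie below 0, and the intestinal, body wall muscle, neuronal and hypodermal lists have genes inside the band.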

How the data were processed

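Total RNA (6 ug) of whole worms was made into biotin-labelled cRNA for Affymetrix arrays, per the labels' protocols. The authors deposited linear signal intensities, 1 for each probe set. The software named is MAS5, per the submitters' processing notes; its version, scaling target and detection calls are not given in the sources used here. Of 22625 probe sets, 77 were control probe sets. The main design took scaling to the trimmed mean of the 22548 worm probe sets, which differed 2.505-fold between the arrays, and signals under the floor were set to it before log2 was taken. A gene's value was the mean over its measured single-gene probe sets. Measured were 11173 probe sets on the a-SWCNT array and 11375 on the control array. Names came from the platform annotation (20766 probe sets with 1 gene, 887 with several) and RefSeq's table of WBcel235.

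The members, lists and tests were chosen with earlier results of these data known, so no list is independent evidence. Named genes were all 8 phat genes, 6 gland-related genes, neighbours in gene order, and the extremes of each list measured on both arrays; T05B4.8 and T05B4.9 were named after their values were seen. No test across arrays was possible; precision is limited by their number. Alternatives were scaling, floor, probe set choice and threshold. The ratio step was tested on simulated data with planted changes larger than any phat ratio, in bright probe sets only. That check does not cover small ratios or dim signals. Computing used Python 3.11.15, pandas 2.3.3, numpy 2.4.6 and statsmodels 0.14.6 (loess, span 0.3).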

Additional observations from a re-analysis of the deposited data

How the results depend on the processing

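The median log2 ratio of the phat genes was -0.41 as reported. Under the 5 other scalings, apart from the values as deposited, it was between -0.57 and -0.29. In the values as deposited it was -1.46 (all measured genes -1.16), with phat-1 and phat-3 entering as upper bounds. With the floor at the 75th percentile (197.4) it was 0.19, because phat-1 and phat-3 were then not measured and phat-4 stood at -0.03 as a bound. The number of phat genes at least 2-fold lower was 0 as reported, against 2.86% of all measured genes. It was 5 as deposited, where the median of all measured genes was itself past 2-fold lower. With equal hybridisation controls it was 1 (phat-1), where that median was -0.18. The share of all genes past 2-fold was not counted in these 2 settings, so the counts are not results about phat genes. At a threshold of 1.5-fold, 2 were lower and 1 higher, against 11.6% and 8.04% of all measured genes, and at 3-fold 0 and 0. In the settings other than the values as deposited, no phat gene changed sign. In the same settings the median of the gland-related list (0.02) lay between -0.47 and 0.11 and that of pharyngeal muscle between 0.23 and 0.53. The pharyngeal cuticle median lay between -0.91 and -0.62. The medians of intestine (0.01 to 0.30), neurons (-0.31 to 0.01), hypodermis (-0.51 to 0.14) and body wall muscle (-0.57 to -0.16) also depended on the setting. No paired analysis was possible because each group has 1 array, and leaving out a replicate was not possible for the same reason. The comparison of proteins by a shared cysteine pattern was not run, as protein sequences were not used here. Signal over background is a limit for phat-1 and phat-3, which lay within 1.13 times the floor on the a-SWCNT array, and phat-3 within 1.41 times on the control array.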

Other observations

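Marker genes of other tissues, which whole-worm RNA also holds, had list medians on both sides of 0, beside 52.1% of all measured genes below 0. Of 9 measured intestinal genes 6 were above 0 (median 0.18), led by the proton pump subunit gene vha-6 with a scaled signal of 2500 on the a-SWCNT array and 1160 on the control array (log2 ratio 1.11). Body wall muscle genes had 7 of 9 below 0 (median -0.40, or -0.16 without probe sets with a letter suffix), with the myosin heavy chain gene unc-54 lowest at -1.02. Of 9 neuronal genes 8 were below 0 at a median of -0.11, and hypodermal genes had 4 above and 4 below 0 at a median of -0.03, or -0.51 without probe sets with a letter suffix.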
